A study of Mus musculus with 2 samples.

Results

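The mouse genes whose symbol is Zfp followed by a number were followed in transfected NIH 3T3 fibroblasts. The plasmid under study encodes a truncated form of the transcription factor ATCE1. A probe set, a group of array probes giving 1 signal, was a member if the array annotation gave it exactly 1 such symbol. This chose 252 of 22690 probe sets, which stand for 171 of the 12393 genes with an unambiguous name, by a rule on symbols that uses no measured value. Another 16 probe sets list a Zfp gene together with other genes and were left out.

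The study compared 1 array of NIH 3T3 cells, an established mouse embryonic fibroblast line, carrying the plasmid pHA-CMV-ATCE1-C-del with 1 array of the same line given the empty vector pHA-CMV, the vector control. The insert encodes ATCE1 without its C-terminal end, a form described as nuclear, driven by the constitutive CMV promoter. ATCE1 is a CREB family bZIP factor whose gene is now Creb3l4. Total RNA was taken 48 hours after lipid transfection in both cases, and no other agent is named. No source used here gives the share of cells that took up the plasmid, so a change in few cells cannot be told apart from a small change in all.

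Zfp is the mouse naming stem for zinc finger proteins. Most are C2H2 proteins, in which 2 cysteines and 2 histidines hold a zinc ion in each finger and tandem fingers read DNA, and many also carry a KRAB domain that recruits the corepressor Trim28 to silence transposable elements. The stem also covers unrelated folds, such as the CCCH fingers of the Zfp36 family, which bind AU-rich stretches in messenger RNA and bring about its decay, and the LIM domain of Zfp185. KRAB zinc finger genes tend to lie in clusters that arose by duplication, so that neighbours resemble each other in sequence.

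Because CREB family factors bind the cAMP response element, promoter sequences of the members were searched for its full palindrome TGACGTCA, for the related element TGACGTGG, for the AP-1 site TGACTCA, for the core TGACG and for the CArG box, the site of serum response factor. Sequences came from RefSeq (GRCm38.p6), each running from 250 bases before to 50 bases after an annotated start, and both strands were searched. The table held 167 promoters of 138 Zfp genes. The full palindrome was in 1 of them (0.599%) against 1.79% of all 32851 promoters. TGACGTGG was in 2 (1.2%) against 0.676%, TGACTCA in 7 (4.19%) against 5.20%, and the CArG box in 3 (1.80%) against 1.63%. The core TGACG, which every TGACGTCA and TGACGTGG also contains, was in 47 (28.1%) against 20.8% of all promoters. These are letter matches in a fixed window, and base composition was not taken into account. The 3 Zfp promoters with an 8-base element are shown because they come closest to a CREB-type site; each line gives 30 bases of the gene's own strand with the element in capitals.
Zfp868 (TGACGTCA, chr8:69625185-69625214, minus strand): cagtacgcggaTGACGTCAcgatccgggct
Zfp61 (TGACGTGG on the opposite strand, chr7:24299567-24299596, minus strand): cgctctccgcaCCACGTCAtctctccagcg
Zfp651 (TGACGTGG on the opposite strand, chr9:121759821-121759850, plus strand): tccaaacgctcCCACGTCAccagccgggtc

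The element began 28 bases before the start in Zfp868, 36 in Zfp61 and 201 in Zfp651. Their array signals, in MAS5 units, were close on the 2 arrays: 115.7 with ATCE1-C-del and 124.1 in the vector control in the case of Zfp868, 92.4 and 99.9 for Zfp61, and 99.0 and 107.8 for Zfp651. All 3 were slightly lower with ATCE1-C-del, at log2 ratios of -0.10, -0.11 and -0.12.

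Before these ratios were taken, each array was scaled to a common trimmed mean, and every signal short of the middle value of its array was lifted to that value, the floor, which stood at 77.45 with ATCE1-C-del and 75.9 in the vector control. A gene was measured if it reached the floor on at least 1 array, and where only 1 array did, the fold is a lower bound, written "at least". The brightest probe set stands for its gene. Since each group is 1 array, no replicate error can be given and nothing was tested. Genes were counted past a fixed 1.5-fold, and "higher" or "lower" describes these 2 arrays only. The one spread that can be seen is between probe sets of the same gene: the log2 ratio of 1 probe set carried an SD of 0.20 over 2451 genes with a pair above the floor on both arrays, which leaves out variation between cultures and labelling reactions.

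Nearly all measured Zfp genes lay within 1.5-fold between the arrays, as did nearly all measured genes of any kind. Of 171, 99 were measured (57.9%, against 54.9% of all genes), 90 of them on both arrays. Of these 99, 1 was at least 1.5-fold higher with ATCE1-C-del, where 0.926% of all 6806 measured genes were, and 0 were at least 1.5-fold lower, where 1.07% were. The log2 ratios ran from -0.54 to 0.59, with a median of -0.07 against -0.006 for all measured genes, and 75 of the 99 lay within 1.2-fold. The share past 1.2-fold in either direction was 24.2% of the Zfp genes and 21.7% of all measured genes, so the members were no closer to equality than genes at large. These groups differ in brightness, and dim signals are less certain. Median signals with ATCE1-C-del and in the vector control were 147.1 and 150.7 for measured Zfp genes, and 323.7 and 333.2 for all measured genes. By sign 40 were higher and 59 lower (59.6% lower, against 51.3% of all measured genes). The side on which the group lies depends on the scaling: scaled to the hybridisation controls, 85 of the 99 were higher and the median moved to 0.20, with that of all genes at 0.27. The median log2 ratio of those controls, 18 probe sets for spiked RNA, was -0.25, and in 17 the ATCE1-C-del array had the lower value. Every direction given here is therefore one against the rest of the genes.

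**Figure D1:**
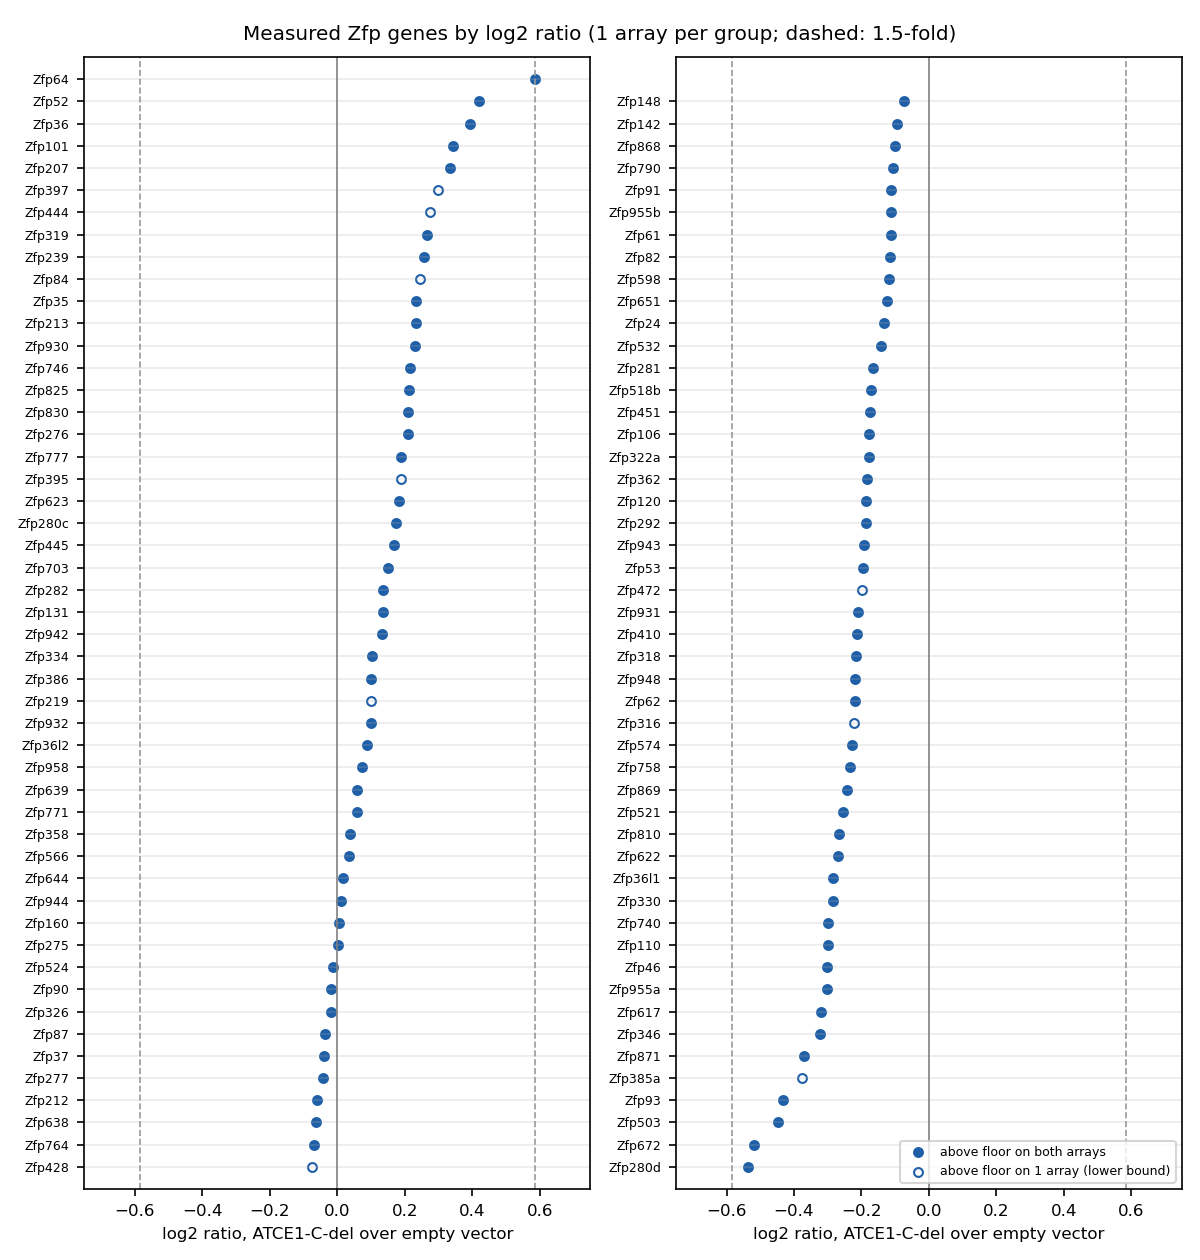
Log2 ratio, ATCE1-C-del to empty vector (horizontal axis), for each of the 99 measured Zfp genes, ordered from Zfp64 at 0.59 to Zfp280d at -0.54. Filled points were above the floor on both arrays, open points on 1 array (lower bounds), dashed lines mark 1.5-fold, and only Zfp64 reaches one.

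C2H2 genes with other names had similar values. Of 98 such genes chosen by symbol (among them the Zbtb, Zscan, Zkscan, Klf, Egr, Gli, Sp and Prdm genes), 49 were measured, with 16 higher, 33 lower and a log2 ratio of -0.09 at the median. None was at least 1.5-fold higher. The one that was at least 1.5-fold lower, named after its value was seen, was Gli2, an effector of Hedgehog signalling, at 89.6 against 148.4 (1.66-fold). Scaled to the hybridisation controls, 42 of the 49 were higher and 7 lower, where 11.5% of all measured genes were lower. No test of a difference between the Zfp genes and these genes was possible.

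**Figure D2:**
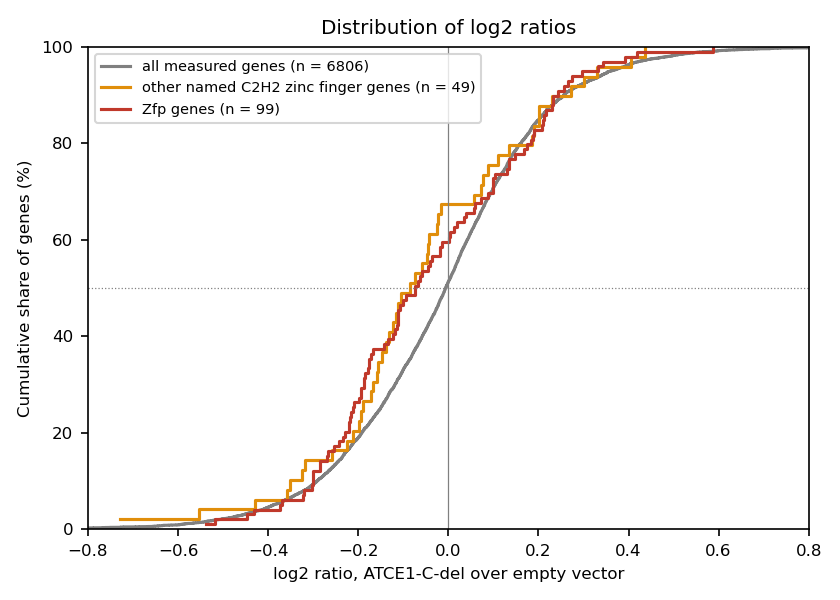
Cumulative share of genes (vertical axis, percent) by log2 ratio, ATCE1-C-del to empty vector (horizontal axis, shown from -0.8 to 0.8) for 6806 measured genes, 99 Zfp genes and 49 other named C2H2 genes. The curves cross the 50% line at -0.006, -0.07 and -0.09.

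Zfp64, a C2H2 factor described as a Notch coactivator in mesenchymal cells, was the one member past the threshold and lay almost on it. Its signal was 130.7 with ATCE1-C-del and 87.0 in the vector control, just over 1.5-fold. Its second probe set was far under the floor, at 9.10 and 6.70, and gives no ratio. Scaling to array medians (0.56) and lowess (0.58) put its log2 ratio just under the threshold. The 250 bases before its start on chr2:168955588-168955837 (GRCm38.p6, minus strand) are shown because it alone passed; the capitals mark a TGACG that begins 73 bases before the start.
Zfp64: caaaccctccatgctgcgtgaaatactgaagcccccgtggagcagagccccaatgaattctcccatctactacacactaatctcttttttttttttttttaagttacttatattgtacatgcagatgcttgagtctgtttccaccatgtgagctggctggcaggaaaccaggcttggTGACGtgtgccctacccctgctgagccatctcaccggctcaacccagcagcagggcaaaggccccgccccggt

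The next members on the higher side were all under 1.5-fold. Zfp52 read 188.5 with ATCE1-C-del and 140.9 in the vector control (1.34-fold), and Zfp101 read 168.1 and 132.4 (1.27-fold); the second probe set of each was under the floor. Zfp319 read 122.8 and 102.2 (1.2-fold). Zfp239, the Mok2 zinc finger gene, read 96.6 and 80.9, Zfp35 138.5 and 117.9, Zfp213 129.9 and 110.6, and Zfp930 92.8 and 79.1, which are differences of 1.19-fold, 1.17-fold, 1.17-fold and 1.17-fold. The signals of most of these genes lay within a factor of 2 of the floor, where a single value is least certain. All 10 of the higher genes named by rule kept their side under each of the 5 other scalings. This was largely fixed beforehand: the signals as deposited nearly equal the main scaling, and the hybridisation controls shift every gene up. Scalings also say nothing of noise between probe sets or cultures.

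On the lower side, Zfp280d had the largest difference, at 100 with ATCE1-C-del against 145.1 (1.45-fold), with a second probe set under the floor on both arrays. Zfp672 read 92.0 against 131.7 (1.43-fold) and Zfp93 103.2 against 139.2 (1.35-fold), each on a single probe set. Zfp503, the repressor Nolz1 of limb and striatal development, read 350.6 against 477.7 (1.36-fold), and its other probe set 307.2 against 338.5 (1.10-fold). Zfp871 read 412.8 against 533.2 (1.29-fold), Zfp617 137.6 against 171.7 (1.25-fold), Zfp955a 337.5 against 416.2 (1.23-fold) and Zfp46 174.9 against 215.4 (1.23-fold). These 8 genes stayed lower under all 5 other scalings, which again say nothing of noise between probe sets or cultures. With the hybridisation controls, though, Zfp617, Zfp46 and Zfp955a came within 0.05 of a log2 ratio of 0.

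The Zfp36 family, which encodes the CCCH RNA-binding proteins, was measured in all 3 members on the arrays and its members lay on both sides. Zfp36, which encodes tristetraprolin, an immediate early product that destabilises cytokine transcripts, read 226.3 with ATCE1-C-del and 172.3 in the vector control (1.31-fold higher) on its single probe set. That probe set is of a kind that can match several transcripts. Zfp36l1 read 1135.7 and 1382.6 (1.22-fold lower), and its other probe set 278.3 and 318.1 (1.14-fold lower). Zfp36l2 read 1710.8 and 1608.6 (1.06-fold higher), and a dimmer probe set 98.3 and 56.1 (at least 1.3-fold higher). The opposed sides of Zfp36 and Zfp36l1 remained under all 5 other scalings, although with the hybridisation controls Zfp36l1 was close to level, at a log2 ratio of -0.011. Such scalings do not bear on noise between probe sets or cultures.

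The 250 bases before the annotated starts of the 2 family members that differed most are shown for comparison, Zfp36 on chr7:28379229-28379478 and Zfp36l1 on chr12:80113014-80113263 (GRCm38.p6, both minus strand). Zfp36 held a match to the CArG box, in capitals, beginning 58 bases before the start, and its upstream sequence was 64.8% G or C. Zfp36l1 held no match to TGACG or the CArG box there and was 48.4% G or C. Zfp36l2 was not found in the promoter table.
Zfp36: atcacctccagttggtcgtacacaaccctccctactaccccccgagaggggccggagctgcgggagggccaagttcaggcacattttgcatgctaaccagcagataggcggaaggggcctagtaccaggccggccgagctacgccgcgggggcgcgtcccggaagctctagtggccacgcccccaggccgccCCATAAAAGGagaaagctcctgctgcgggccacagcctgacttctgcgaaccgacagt
Zfp36l1: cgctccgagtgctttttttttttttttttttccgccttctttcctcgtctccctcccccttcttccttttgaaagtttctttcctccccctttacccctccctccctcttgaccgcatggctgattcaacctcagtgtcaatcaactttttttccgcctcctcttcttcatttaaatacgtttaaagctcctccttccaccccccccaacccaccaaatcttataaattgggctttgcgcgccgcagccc

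Members with high signals were also within 1.5-fold. Among the 6 members with the highest signals, Zfp207, which encodes the spindle and kinetochore protein BuGZ, read 1317.6 with ATCE1-C-del and 1046.0 in the vector control (1.26-fold higher). Its next probe set gave 433.6 and 417.9 (1.04-fold higher) and a further one was at least 1.11-fold lower, so the difference rests on 1 probe set of a kind that can match several transcripts. Probe sets of this kind also stand for Zfp36, Zfp46, Zfp617 and Zfp622, among others, and for Cnot4 below. One of them gave the Zfp292 ratio farthest from equality. Zfp91, a ubiquitin ligase of the NF-kB pathway, read 581.9 and 628.3 (1.08-fold lower), and 275.6 and 303.5 on its other probe set (1.10-fold lower).

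**Figure D3:**
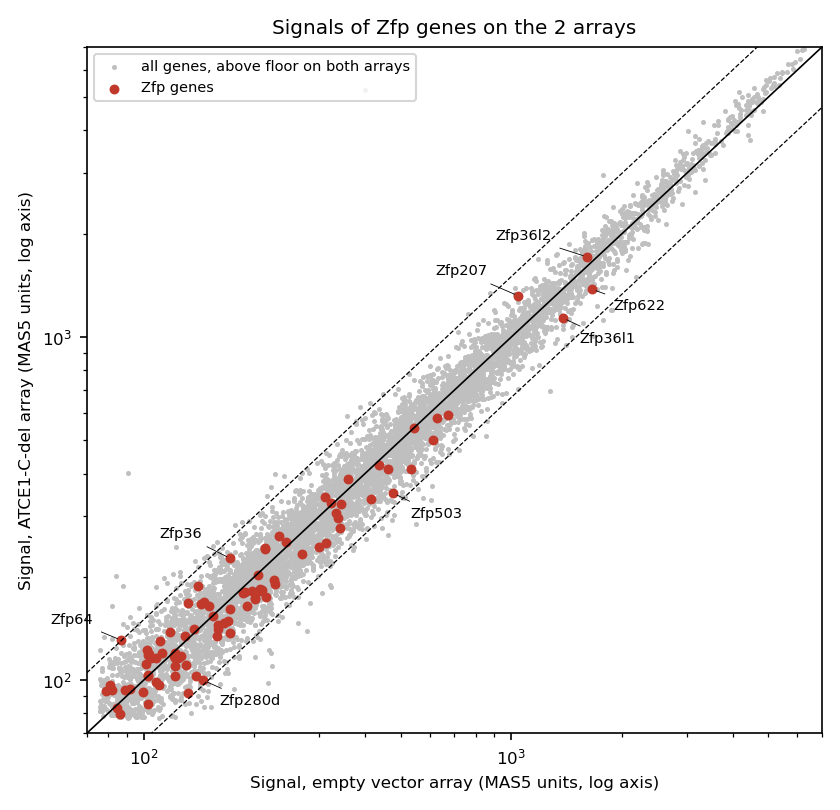
MAS5 signal on the ATCE1-C-del array (vertical) against the empty vector array (horizontal), both on log axes, for all genes above the floor on both arrays (grey) and the 90 Zfp genes among them (red). The solid line is equality and the dashed lines 1.5-fold; the Zfp genes lie inside the dashed lines except Zfp64, which sits on the upper one.

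Members listed for roles in RNA handling and ribosomes were mostly on the lower side on their brightest probe sets, without passing 1.5-fold. The list leaves out the RNA-binding Zfp36 family, in which 2 of 3 were higher. Of 9 on the arrays 8 were measured, 7 lower and 1 (Zfp207) higher. Their median was -0.22 on the log2 scale and 0 were past 1.5-fold. Zfp106 counts as lower by its brightest probe set, at a log2 ratio of -0.18, but its other measured probe sets were higher, at 0.19 and 0.26. Zfp622, which encodes a maturation factor of the large ribosomal subunit, read 1377.1 with ATCE1-C-del and 1659.4 in the vector control (1.21-fold lower), but its other probe set went the other way, at 288.5 and 270.0 (1.07-fold higher). Zfp346, a binding protein of double-stranded RNA, was lower on both probe sets, at 250.5 against 313.4 (1.25-fold) and 90.7 against 103.4 (1.14-fold). Zfp330, which encodes a nucleolar protein, read 501.6 and 611.3 (1.22-fold lower), and Zfp385a, an RNA-binding p53 target, read 69.0 and 100.4 (at least 1.3-fold lower). Zfp598, the ubiquitin ligase that senses collided ribosomes, read 306.6 and 333.0 (1.09-fold lower), and Zfp326, of a complex that couples transcription with splicing, was level at 202.4 and 205.1. Scaled to the hybridisation controls, which shift all genes alike, 3 of these 8 were lower. The list median was then 0.05 against 0.27 for all measured genes, so the list stayed lower than genes at large. On second-brightest probe sets 1 of 4 was lower, so the side of this list is not settled.

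Broadly expressed promoter-binding members were also more often lower on their brightest probe sets, under the main scaling. All 7 on the arrays were measured, 5 lower and 2 higher, where 51.3% of all measured genes were lower. Their median was -0.13 on the log2 scale and 0 were past 1.5-fold. On second-brightest probe sets 2 were higher and 2 lower. Without probe sets that can match several transcripts 3 were higher and 4 lower, so the side of this list is not settled. With the hybridisation controls 6 of the 7 were higher, around a median of 0.14 against 0.27 for all measured genes. Zfp148, which binds GC-rich promoters, was lower on all 4 of its probe sets by small margins, with signals of 327.0 against 344.3 on the brightest (1.05-fold) and 103.9 against 121.4 on the farthest from equality (1.17-fold). Zfp281, a related factor of pluripotent cells, read 411.5 and 461.9 (1.12-fold lower), and 201.6 and 277.8 on its other probe set (1.38-fold lower). Zfp410, known as an activator of Chd4, read 195.4 and 226.3 (1.16-fold lower), but 112.8 and 106.9 on its other probe set (1.05-fold higher). Zfp24 read 145.2 and 159.3 (1.10-fold lower), but 88.6 and 81 on its other measured probe set (1.09-fold higher). Zfp740 read 277.3 and 341.3 (1.23-fold lower), Zfp131 341.7 and 311.2 (1.10-fold higher) and Zfp219 81.3 and 61.9 (at least 1.07-fold higher).

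Members known from ubiquitin, SUMO or chromatin complexes were within 1.2-fold. Beside Zfp91, Zfp451, a SUMO ligase, read 183.9 with ATCE1-C-del and 207.6 in the vector control (1.13-fold lower) and Zfp532 110.1 and 121.5 (1.10-fold lower). Zfp644 was level on its brightest probe set, at 327.5 and 323.3, and 1.2-fold lower on another, at 178.6 and 214.9. The 4 genes had a median log2 ratio of -0.13, which scaling to the hybridisation controls turned to 0.15, where all measured genes had 0.27.

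Members that mark other cell states were mostly under the floor. Zfp42, the pluripotency marker Rex1, read 6.4 with ATCE1-C-del and 1 in the vector control, and Zfp423, which commits cells to the fat lineage, read 1.2 and 0.4. Zfp521, an antagonist of fat cell formation expressed in mesenchymal cells, was measured, at 191.2 and 228.0 (1.19-fold lower). Of the genes that guard imprints and silence proviruses, Zfp57 (52.0 and 65.3) and Zfp568 (57.9 and 52.1) were under the floor. Zfp445 read 262.4 and 233.5 (1.12-fold higher) on one probe set and 205.6 and 244.6 (1.19-fold lower) on the other, and Zfp932 read 116.1 and 108.4 (1.07-fold higher). In all, 72 Zfp genes did not reach the floor on their brightest probe set, with signals from 0.4 to 74.4, and nothing is said of their change.

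Different probe sets of one Zfp gene often disagreed, which bears on every ratio above. Of 25 Zfp genes with at least 2 measured probe sets, 10 were lower on all, 2 were higher on all and 13 were mixed. Among the 23 with a pair above the floor on both arrays, 12 had both ratios on the same side (52.2%), where 60.2% of all 2451 such genes did. The members that were lower on all 3 or 4 measured probe sets were Zfp148, Zfp110 and Zfp292. Zfp110, which encodes the neurotrophin receptor interacting factor NRIF, read 244.1 against 300.5 (1.23-fold), 103.5 against 121.4 (1.17-fold) and 152.2 against 174.8 (1.15-fold). Zfp292, named after its values were seen, read 148.9 against 169.6 (1.14-fold), 142.7 against 175.3 (1.23-fold) and 74.4 against 131.9 (at least 1.70-fold).

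That last probe set of Zfp292 was the only Zfp probe set at least 1.5-fold lower, where 1.39% of all 11631 measured probe sets were, and Zfp64 gave the only one at least 1.5-fold higher, where 1.12% were. Zfp106, an RNA-binding protein needed by motor neurons, was an example of a mixed gene: its brightest probe set read 594.3 against 671.8 (1.13-fold lower) and the other measured ones 340.7 against 298.0 (1.14-fold higher) and 228.1 against 190.8 (1.2-fold higher). Zfp37 was level on one probe set, at 117.6 and 120.9, and 1.36-fold higher on the other, at 113.5 and 83.3. Scaled to the hybridisation controls, under which only 11.5% of all measured genes were lower, 45 of the 59 lower Zfp genes turned higher on their brightest probe set. Of the 26 genes named by rule these were Zfp148, Zfp106, Zfp622 and Zfp91, and of the others described here Zfp292 (log2 ratio 0.08) and Zfp37 (0.23) were among them.

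**Figure D4:**
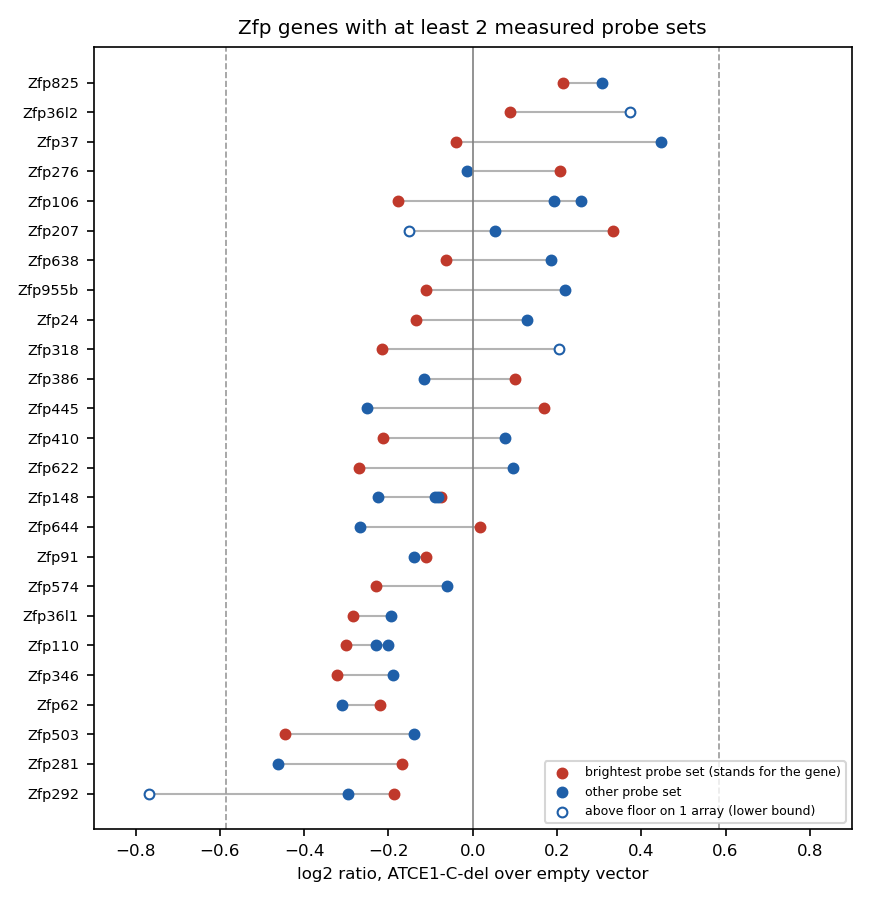
Log2 ratio, ATCE1-C-del to empty vector (horizontal axis), for every measured probe set of the 25 Zfp genes with at least 2, 1 line per gene; red points mark the brightest probe set, blue points the others, and open points lower bounds. In 13 genes the points lie on both sides of 0, and the farthest point is a lower bound for Zfp292 at -0.77.

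Members were also compared with their neighbours on the chromosome. By the gene order of GRCm38.p6, used for adjacency only, 87 of the 171 Zfp genes lie next to another Zfp gene and 84 do not. Of the first, 42 were measured (48.3%), and of the second 57 (67.9%). Signals of different probe sets cannot be compared as levels, so this compares only how many reached the floor. The median log2 ratios were alike, -0.06 with 18 of 42 higher and -0.08 with 22 of 57 higher. Among 10 adjacent pairs with both genes measured, 3 pairs had both ratios on the same side under the main scaling and 9 with the hybridisation controls, so the count follows the scaling. The pairs hold 18 genes, since Zfp52 and Zfp35 are each in 2. Under the main scaling Zfp52, at a log2 ratio of 0.42, lies between Zfp53 (183.3 against 209.8, 1.14-fold lower) and Zfp948 (164.5 against 191.5, 1.16-fold lower), whereas Zfp777 (93.8 against 82.2) and its neighbour Zfp746 (166.8 against 143.6) were both higher, by 1.14-fold and 1.16-fold.

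Members were also divided by whether a promoter held TGACG. Of 82 measured Zfp genes with a promoter in the table, 31 held TGACG and had 15 higher and 16 lower; their log2 ratios centred on -0.04. The other 51 had 17 higher and 34 lower, with a median of -0.11. Of all measured genes 51.3% were lower, and the same division over all genes is not given. Base composition and brightness were not taken into account, and no test of this difference was made.

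Partners of the Zfp proteins were read from lists of textbook members. Of 24 genes of the KRAB corepressor pathway, 20 were measured, 11 higher and 9 lower, around a median of 0.009 (log2). The split followed the scaling: 6 were higher and 14 lower with array medians (median -0.02), and 18 higher and 2 lower with the hybridisation controls (0.28). The medians of all measured genes under these scalings were -0.035 and 0.27. On second-brightest probe sets 9 of 12 were higher (0.19). Trim28, the corepressor itself, read 1702.7 with ATCE1-C-del and 1800.9 in the vector control (1.06-fold lower). One gene passed 1.5-fold, Mbd3, a subunit of the NuRD complex, at 343.5 against 216.9 (1.58-fold higher, single probe set). The NuRD remodeller Chd4 read 374.9 and 498.5 (1.33-fold lower) but was equal on its other probe set, at 213.8 and 214.4. The histone methyltransferase Setdb1 read 378.5 and 462.6 (1.22-fold lower) and went the other way on its second probe set, at 230.0 and 202.5 (1.14-fold higher). Hdac1 read 799.9 and 926.5 (1.16-fold lower).

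Of 26 genes of messenger RNA decay, with which the Zfp36 proteins work, 25 were measured, 11 higher and 14 lower. Their median was -0.04 (log2), or 0.23 when scaled to the hybridisation controls, where that of all measured genes was 0.27. Cnot4, a ubiquitin ligase linked to the deadenylase complex, was 1.99-fold lower on its brightest probe set, at 139.5 against 277.4, the one gene of the list past 1.5-fold. Its other probe sets lay at log2 ratios of -0.30, -0.07 and 0.07. The exosome genes Exosc2 (261.9 against 185.4) and Exosc9 (551.8 against 429.8) were 1.41-fold and 1.28-fold higher, and Tia1, which encodes a binding protein of AU-rich RNA, was lower on all 3 probe sets, by 1.28-fold on the brightest.

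Transcripts with AU-rich elements, the textbook substrates of Zfp36, were mostly higher. Of 22 on the list 15 were measured, 12 higher and 3 lower under the main scaling and also under array median, quantile and lowess scaling, around a median of 0.22 (log2), where 3315 of all 6806 measured genes were higher. With the hybridisation controls 14 of the 15 were higher, around a median of 0.50. All measured genes then had a median of 0.27, and only 11.5% of them were lower, so that count adds little. Of the 12, Fos, Il6 and Lif reached the floor only with ATCE1-C-del, so they could count only as higher. Pim1 reached it only in the vector control and could count only as lower. The ratios of these genes are lower bounds, and 11 of the 15 were above the floor on both arrays. The list was also chosen with earlier results of these data known, so its counts are a description only. Without probe sets that can match several transcripts, 9 of 12 were higher and the median was 0.13. The 2 that were at least 1.5-fold higher, as were 0.926% of all measured genes, were Ptgs2, which encodes cyclooxygenase-2, at 365.4 against 221.9 (1.65-fold), and Fos, at 124.7 against 53.5 (at least 1.64-fold). Birc3 read 139.6 and 100.7 (1.39-fold), Ier3 429.4 and 330.0 (1.3-fold) and Myc 331.8 and 256.9 (1.29-fold). The list shares genes with the serum response programme, to which Zfp36 itself belongs, and the part of that programme in these values was not tested.

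The cultures read as fibroblasts on both arrays. All 10 fibroblast markers, such as Col1a1 and Vim, were above the floor on both arrays with a median log2 ratio of 0.006, and 0 of 7 epithelial, 0 of 6 muscle and 0 of 6 endothelial markers were measured. Of 6 macrophage markers Cd14 and, on 1 array, Cd68 were measured, and of 4 adipocyte markers only Lpl. Creb3l4 was under the floor on both arrays, at 18 with ATCE1-C-del and 20.7 in the vector control, and no source used here says which stretch of the transcript its probes read, so it does not check which culture carried the insert. Signal at the 3′ end over that at the 5′ end was 1.07 with ATCE1-C-del and 1.12 in the vector control for Actb, and 0.902 and 0.772 for Gapdh, so the 2 samples were not identical in this respect, and its part in the small differences above was not tested.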

How the data were processed

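RNA from 2 cultures was read on 1 array each. Per the submitters' processing notes MAS5 made the deposited signals, linear intensity values; its version and target value are not given here. From them the log2 ratio was computed after division by the trimmed mean (2% at each end, 249.2 on both arrays) and raising of signals to the array median. The 64 control probe sets were left out. Gene names came from the platform annotation, which gave 20380 probe sets 1 symbol, 691 several and 1555 none; all 171 members matched the RefSeq gene table of GRCm38.p6 by Entrez ID, with 0 symbols changed. With 1 array per group no p-value was computed, and precision is limited by having 1 array each.

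The members and lists were chosen with earlier results of these data known. The genes named were the Zfp36 family, members past 1.5-fold, up to 10 per direction with the largest ratio above the floor on both arrays, the 6 with the highest signal, those with at least 3 probe sets above the floor on both arrays, and up to 4 per partner list; further ones belong to the lists of roles, share a promoter element or border on named genes, or are said to have been named later. Grouping by protein domains was planned and not run, since no protein sequences were used here. The procedure was tested on simulated data, with changes larger than that of any Zfp gene here and shared by every probe set of a gene. That test does not show how well changes of the size seen here are found. Alternatives covered scaling, floor, log scale, threshold and choice of probe set; the scalings were applied to the neighbour pairs after seeing the data. Calculations ran in Python 3.11.15 with pandas 2.3.3, numpy 2.4.6 and, for lowess, statsmodels 0.14.6; plots were made with matplotlib 3.10.9.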

Additional observations from a re-analysis of the deposited data

How the results depend on the processing

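The count of 1 Zfp gene at least 1.5-fold higher became 0 with scaling to array medians, with lowess, with log2(signal + 50), with the floor at the 75th percentile and on second-brightest probe sets, 5 with scaling to the hybridisation controls and 9 under the 25th percentile floor. The count of 0 lower became 4 under the 25th percentile floor and 1 (Zfp428, 48.3 against 81.5) with no floor. At 1.3-fold the counts were 3 higher and 4 lower, and at 2-fold 0 and 0. The share of all genes past the threshold is not given under these alternatives, so the counts cannot be set against it. With the hybridisation controls the median log2 ratio of all measured genes was 0.267. The 25th percentile floor let in dim signals, such as 28.5 with ATCE1-C-del against 10.2 for Zfp352. The 25th and 75th percentile floors left 160 and 20 measured genes in place of 99. The median log2 ratio of -0.074 was -0.103 with array medians, -0.034 and -0.122 with the 25th and 75th percentile floors and -0.044 as the mean over probe sets, and turned to 0.199 with the hybridisation controls. The floor and the threshold fix which genes are counted. Scaling to array medians or to the hybridisation controls multiplies each array by a constant, which moves every log2 ratio by the same amount. The cause of the other shifts was not tested. Of 277 values of the 26 genes named by rule under the alternatives, 242 moved by less than the SD between probe sets, and 26 of the 35 that moved more did so with the hybridisation controls, which shift all genes alike. Many of the 242 could hardly move. The signals as deposited already had equal trimmed means, and a changed floor leaves the ratio of a gene above it as it was. A mean over probe sets is fixed for genes with 1 measured probe set. The tally is therefore no measure of stability. No paired analysis was possible because each group has 1 array, and for the same reason no array could be left out. The depth of an array is not a count, and signals near the floor are the least certain.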
